A study of Mus musculus with 6 samples.

Results

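DNA repair mRNAs were examined in neural stem and progenitor cells (NSC/NPCs) of the fetal mouse hypothalamus after a high maternal estradiol environment. The members were 39 genes given as a list, of 22048 genes in the deposited table. All 39 were found by gene symbol and all 39 passed the filter on low values. Of these, 23 belong to excision repair (16 nucleotide excision, 5 base excision and 2 mismatch repair genes). The other 16 belong to recombination and checkpoint control (10 of homologous recombination and the Fanconi anemia pathway, 2 of end joining and 4 checkpoint kinases). The measure was RPKM, the reads of a gene scaled by its length in kilobases and by the total reads of the sample. Levels below are RPKM and differences between groups are log2 fold changes, HE minus NC, of RPKM + 0.1.

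Pregnant C57BL/6 mice of 8 weeks of the high estradiol (HE) group were gavaged with estradiol valerate, 100 μg/kg/d, between E5.5 and E11.5. The control (NC) dams received corn oil alone, although the treatment field of the labels calls these samples untreated. Hypothalami of male fetuses were taken at E14.5 in both groups, dissociated and grown as floating neurospheres with EGF and bFGF, and RNA was taken at the first passage. There were 3 HE and 3 NC samples, each with cells of 2 mice, and the sources do not state which fetuses shared a litter. The estradiol was given to the dam and ended before the cells were isolated, so the profiles are those of cultured cells after exposure, not of the hypothalamus itself.

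Excision repair removes a damaged or wrong stretch of a single strand and copies the gap from the intact strand. Its nucleotide and base excision branches work in dividing and resting cells alike. Homologous recombination copies a broken chromosome from its sister and is therefore used mainly after DNA has been replicated, while end joining religates the break without a template. The checkpoint kinases sense breaks or stalled forks and hold the cell cycle, and several recombination genes are known targets of the E2F factors that drive entry into S phase.

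Promoter windows of RefSeq (GRCm38.p6, 250 bases before to 50 after a start site) were found for 32 of the 39 members, 19 of excision repair and 13 of recombination and checkpoint control. They were searched on both strands for the E2F words TTTCCCGC, TTTGGCGC, TTTCGCGC and TTTGCCGC. A word was present in 4 of 13 recombination and checkpoint windows (30.8%), in 1 of 19 excision repair windows (5.26%, Msh6) and in 744 of 32851 windows of all genes (2.27%). The 4 stretches are shown because the word was found in a larger share of the recombination and checkpoint windows. Each is 30 bases on the strand of its gene with the word in capitals, in one orientation in Bard1 and in the other in Chek2, Brca2 and Xrcc6. The stretches lie at chr1:71103163-71103192 (Bard1, minus strand), chr5:110839820-110839849 (Chek2, plus strand), chr5:150522442-150522471 (Brca2, plus strand) and chr15:82016312-82016341 (Xrcc6, plus strand).
Bard1: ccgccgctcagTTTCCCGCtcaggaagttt
Chek2: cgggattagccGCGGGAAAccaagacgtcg
Brca2: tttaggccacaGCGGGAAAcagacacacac
Xrcc6: agggggtggaaGCGGGAAAtgcgagtgggc

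The first base of the word lay at -209 in Bard1, -152 in Chek2, -168 in Brca2 and -46 in Xrcc6 from the start site of the window. The stretches of Chek2, Brca2 and Xrcc6 lie inside the span annotated for the gene, which begins at an earlier start, and that of Bard1 lies outside its span. The word CCAAT was present in 61.5% of recombination and checkpoint windows and 57.9% of excision repair windows, against 37.4% of all windows. The ETS word CCGGAAG was present in 23.1%, 15.8% and 8.86%, the cell cycle word TTTGAA in 7.69%, 5.26% and 17.9%, and TATAAA in 15.4%, 0% and 13.6%, in the same order and on both strands. The median GC content was 57.3% and 63.3% in the 2 classes against 52.7% in all windows. A match describes these letters only, and no factor was measured on these promoters.

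Between 16078675 (HE3) and 19137059 (NC2) reads per sample were counted on genes, and 1 read on a gene of 1 kilobase was worth 0.0523 to 0.0622 RPKM. HE3 stood apart from its group, with a mean distance of 80.4 to the other HE samples on the log2 scale against 46.2 to 60.9 for the other samples. Its median over all genes lay at -0.17 from the NC mean, while the other 5 samples lay between -0.02 and 0.02. The progenitor marker Sox2 read 195 to 209 in NC, 176 and 172 in HE1 and HE2 and 97.3 in HE3, and Nes was present at 154 to 247 in all 6 samples. Of the 6 progenitor markers 2 were higher in HE, Fabp7 by 0.62 (736 to 1323 in NC and 2383 in HE3) and Hes1 by 0.19, with HE3 the highest sample in both. Summed markers of microglia were 0.344 to 0.854 in NC and 1.56 to 8.11 in HE, with 3 of 6 markers tested. Of these, C1qa was at 0 in NC1 and NC2, at 0.0508 in NC3 and at 0.252 to 3.17 in HE. C1qb and Tyrobp also parted the groups, while Csf1r, Cx3cr1 and Aif1 overlapped. C1qa, Tyrobp and Aif1 did not pass the filter on low values. Summed mesenchymal markers were 29.6 to 77.6 in NC and 67.1 to 154 in HE (5 of 6 tested), endothelial markers 2.47 to 3.42 and 4.12 to 5.23 (3 of 6), and neuronal markers 45.8 to 76.4 and 51.4 to 66.8 (6 of 6). Of the mesenchymal markers tested 4 were higher in HE, and Pdgfra differed by -0.11. Among endothelial markers Cdh5 (0.341 to 0.755 in NC, 1.66 to 2.75 in HE) and Cldn5 (1 to 6 reads per sample) parted the groups. Kdr, Pecam1, Tek and Flt1 overlapped, and Flt1 differed by -0.20. The neuronal sum is mostly Tubb3 and Map2, and 5 of the 6 neuronal markers were lower in HE (median -0.32, or -0.19 without HE3), while Map2 was higher by 0.49. Oligodendrocyte lineage markers were 272 to 302 in NC and 287 to 501 in HE (6 of 6), and astrocyte markers 1472 to 1873 and 1065 to 1502 (6 of 6). In both of these lists 2 markers were higher in HE and 4 were lower. The higher ones were Olig1 (0.57) and Olig2 (0.36) in the first list and S100b (0.92) and Aldoc (0.30) in the second. The part of HE3 and of these markers in the differences below was not tested, and the class results and those members that HE3 moved most are also given without it.

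Transcripts of recombination and checkpoint genes were higher in HE in all 16 members, whose median log2 fold change was 0.35, while excision repair genes were higher in 15 of 23 with a median of 0.06. Over all 13952 genes tested, 6109 (43.8%) were higher and the median was -0.06. Without HE3, 6971 of all genes were higher and their median was -0.0002. The middle part of the excision list ran from -0.10 to 0.17 between its quartiles and that of the recombination and checkpoint list from 0.18 to 0.39. The largest difference of a recombination or checkpoint gene was 0.47 and only Exo1 among the 39 passed 0.5. Each of these differences was thus small in size. Apart from size, no member passed an adjusted p of 0.05 (limma, Benjamini-Hochberg), and the adjusted p ranged from 0.204 to 0.995. No gene of the table passed it together with a log2 fold change of 1 either way (0.0% called), and the smallest adjusted p of any gene was 0.148. By voom the count was also 0, with sample weights it was 268 and without NC3 it was 103. At the same cutoffs the paper did report differentially expressed mRNAs, both higher and lower in HE. It used DESeq2, which was not run here.

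At an unadjusted p under 0.05, 1211 of all genes (8.68%) were higher in HE and 1647 (11.8%) were lower. Of the members, 3 were higher at this level (Apex1, Ercc8 and Xrcc6) and 0 were lower. Without HE3 the background was 1305 higher (9.35%) and 1470 lower (10.5%), and 2 members were higher (Apex1 and Ercc8) and 0 lower. All HE samples lay above all NC samples in 13 members and below them in 1 (Xpa). The same held for 2067 of all genes above (14.8%) and 2493 below (17.9%). Thus 6 of 16 recombination and checkpoint members and 7 of 23 excision members lay above, both larger shares than over all genes. Exo1 is counted among the 7, although its NC1 and HE1 values were level at 2.20 RPKM. By contrast, 3 members past an unadjusted p of 0.05 is a share of the 39 near the background. In cultures of mixed cells, fewer cells of a type and less RNA per cell cannot be told apart.

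**Figure D1:**
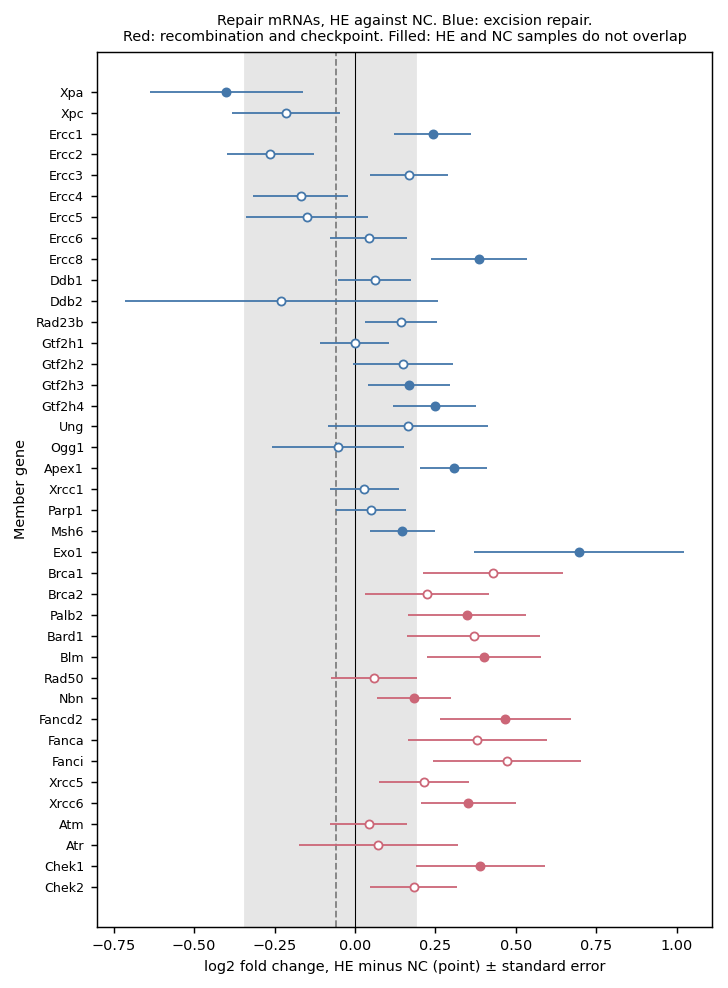
Log2 fold change, HE minus NC, of RPKM + 0.1 for each of the 39 members (x axis), with the standard error as a line, excision repair in blue and recombination and checkpoint in red. Filled points have 3 HE and 3 NC samples that do not overlap, the grey band is the middle range of all genes between its quartiles (-0.34 to 0.19) and the dashed line their median (-0.06). All 16 red points lie right of 0, while 8 of 23 blue points lie left of it.

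Nucleotide excision repair begins with recognition of the lesion, by XPC with RAD23B, by DDB1 with DDB2, or by a stalled RNA polymerase through ERCC6 and ERCC8. Ercc8, whose product is part of a ubiquitin ligase at stalled polymerases, read 1.95, 1.88 and 1.85 RPKM in NC1, NC2 and NC3 and 2.49, 2.34 and 2.70 in HE1, HE2 and HE3. Every HE sample was above every NC sample and the NC samples lay close together. The log2 fold change was 0.38 ± 0.15 (SE, n = 3 per group) with a limma adjusted p of 0.225, and it was 0.33 without HE3. Ercc8 lies at chr13:108158711-108201204. Its partner in this branch, the remodelling ATPase Ercc6, differed by 0.04 and read 4.76 to 5.16 in all 6 samples.

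The recognition genes had no common direction. Xpc, the damage sensor, was between 9.60 and 10.3 in 5 samples and 6.79 in HE3, a log2 fold change of -0.22 ± 0.17 that was -0.04 without HE3. Rad23b, which stabilizes XPC, differed by 0.14. The ratio of Xpc to Rad23b was 0.297, 0.296 and 0.265 in NC and 0.249, 0.234 and 0.189 in HE, lower in every HE sample than in any NC sample. Of 9 ratios of partner genes computed, this one and that of Ercc1 to Ercc4 parted the groups and the other 7 overlapped (Ddb1 to Ddb2, Brca1 to Bard1, Brca2 to Palb2, Fancd2 to Fanci, Nbn to Rad50, Xrcc6 to Xrcc5 and Atm to Atr). None of the ratios was tested. Ddb1, the adaptor of CUL4 ubiquitin ligases, was the highest of all members at 206 to 235 RPKM and differed by 0.06. Ddb2, the UV damage binding subunit, read 1.89, 1.70 and 1.23 in NC and 2.45, 1.71 and 0.546 in HE, with only 24 reads in HE3. The HE samples spanned the NC samples on both sides, and its log2 fold change was -0.23 ± 0.49 with all samples and 0.35 without HE3. Ddb2 overlaps Acp2 on the genome by 2554 bases, and since the use of strand in counting is not stated, reads of overlapping genes may not be told apart.

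The helicase complex TFIIH opens the DNA around the lesion. Its core subunits Gtf2h3 and Gtf2h4 were both higher in every HE sample. Gtf2h4 read 8.81, 8.64 and 8.56 in NC and 9.79, 9.38 and 11.9 in HE. Gtf2h3 read 9.01, 8.98 and 9.44 in NC and 9.53, 9.62 and 11.9 in HE. HE3 was the highest sample in both, and HE1 and HE2 were within 1 RPKM of the nearest NC sample in Gtf2h3. The log2 fold changes were 0.25 ± 0.13 for Gtf2h4 (limma adjusted p = 0.296, 0.14 without HE3) and 0.17 ± 0.13 for Gtf2h3 (adjusted p = 0.442, 0.07 without HE3). The helicase Ercc3 and the subunit Gtf2h2 differed by 0.17 (0.11 without HE3) and 0.15, Gtf2h1 by -0.00, and the helicase Ercc2 by -0.26, with overlapping groups in each. Ercc2 was the lowest in HE3 at 5.76 and the highest in NC2 at 8.10.

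Damage verification and incision held the one member that was lower in every HE sample. Xpa, the scaffold that verifies the lesion and places the nucleases, read 8.44, 8.44 and 8.67 in NC and 7.93, 7.78 and 4.30 in HE. The NC samples were nearly equal, HE1 and HE2 lay just under them and HE3 lay far below. Its log2 fold change was -0.40 ± 0.24 (limma adjusted p = 0.342) and -0.12 without HE3, so most of the difference rested on that sample. Ercc1, the partner that stabilizes the nuclease ERCC4, went the other way, at 11.0, 11.49 and 10.5 in NC and 12.5, 12.0 and 14.6 in HE. All HE samples were higher, by 0.24 ± 0.12 (adjusted p = 0.280, 0.16 without HE3). Ercc4 itself differed by -0.17, so the ratio of Ercc1 to Ercc4 was 3.32, 3.78 and 3.37 in NC and 4.60, 3.88 and 5.66 in HE, above NC in each HE sample. The nuclease Ercc5 was 14.6 to 16.2 in 5 samples and 10.1 in HE3, and its log2 fold change was -0.15 with and 0.07 without HE3. Over the 4 genes of this step, the median was -0.16 with HE3 and -0.02 without it.

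Base excision repair replaces single damaged bases. Apex1, the endonuclease that cuts the backbone at the site left by a glycosylase, had the smallest adjusted p of the members. It read 23.6, 22.8 and 22.4 in NC and 26.0, 28.6 and 30.6 in HE. The groups did not overlap and the lowest HE sample was above the highest NC sample by more than the range of the NC samples. The log2 fold change was 0.31 ± 0.10 (n = 3 per group, limma adjusted p = 0.204), and it was 0.25 without HE3. Apex1 lies at chr14:50924949-50927188. The glycosylases Ung, for uracil, and Ogg1, for oxidised guanine, differed by 0.16 and -0.05 with all samples and by -0.09 and -0.26 without HE3, which was the highest sample in both. The scaffold Xrcc1 and the strand break sensor Parp1 differed by 0.03 and 0.05, and Parp1 was high in all samples at 48.6 to 57.9.

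In mismatch repair, Msh6 was higher in all HE samples, and Exo1 was higher in HE2 and HE3 and level with NC1 in HE1. Exo1, the exonuclease that removes the mismatched strand and that also resects broken ends, read 2.20, 1.66 and 2.18 in NC and 2.20, 2.95 and 5.49 in HE. HE1 and NC1 were level at this precision, HE2 was higher and HE3 was far above the rest. Exo1 had the largest log2 fold change of the 39, 0.70 ± 0.33 (limma adjusted p = 0.267), which was 0.34 without HE3. Moving it to the recombination class left the class medians at 0.06 and 0.35. Msh6, which recognizes mismatched bases, read 24.9, 24.0 and 25.4 in NC and 26.1, 26.6 and 29.8 in HE, a difference of 0.15 ± 0.10 (adjusted p = 0.400, 0.09 without HE3).

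**Figure D2:**
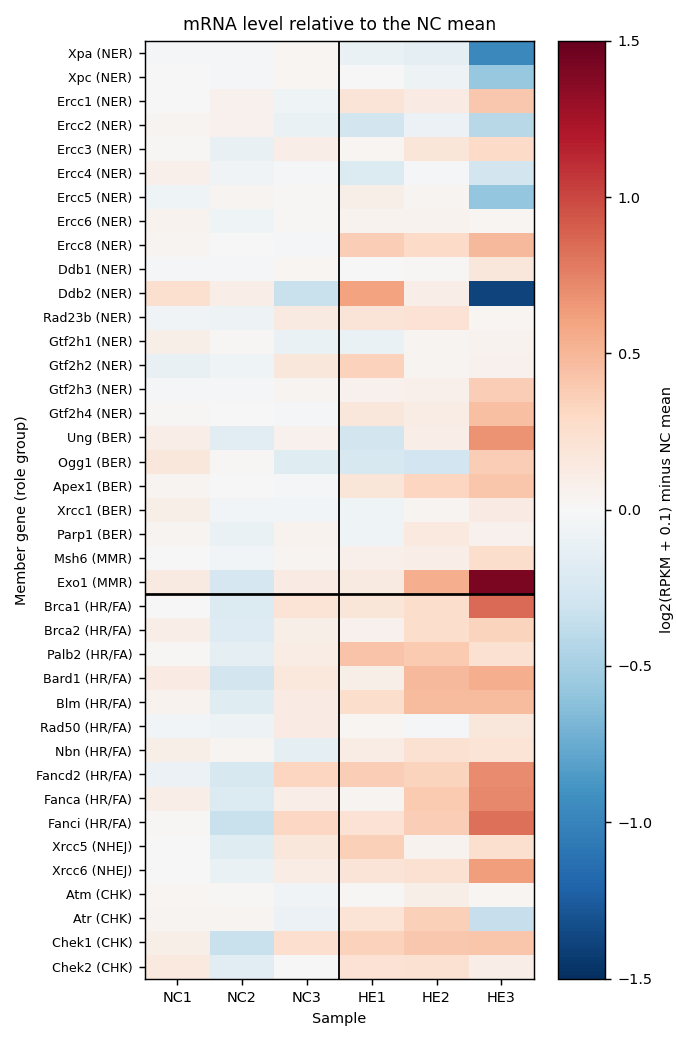
Log2(RPKM + 0.1) minus the NC mean for the 39 members (rows, with nucleotide excision NER, base excision BER, mismatch MMR, recombination and Fanconi HR/FA, end joining NHEJ and checkpoint CHK) in the 6 samples (columns), red above and blue below the NC mean. The black lines part NC from HE and excision repair from recombination and checkpoint genes. NC2 is the lowest sample in 13 of the 16 lower rows and HE3 the highest in 10 of them, while in the upper rows HE3 is highest in 12 of 23 and lowest in 6.

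In homologous recombination and the Fanconi anemia pathway all 10 members were higher in HE. Their median was 0.37 (0.25 without HE3), with values from 0.06 (Rad50) to 0.47 (Fanci). The groups did not overlap in 4 of them. Blm, the helicase that dissolves joined recombination intermediates, read 1.31, 1.09 and 1.37 in NC and 1.51, 1.77 and 1.78 in HE. Palb2, which links BRCA1 and BRCA2, read 0.711, 0.633 and 0.769 in NC and 0.981, 0.950 and 0.839 in HE. In both genes each HE sample lay above the highest NC sample, and HE3 was the lowest HE sample in Palb2. The log2 fold changes were 0.40 ± 0.18 for Blm (limma adjusted p = 0.252) and 0.35 ± 0.18 for Palb2 (adjusted p = 0.301), and they were 0.36 and 0.41 without HE3.

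Nbn, the signalling subunit of the complex that holds broken ends, read 10.2, 9.84 and 8.67 in NC and 10.3, 11.2 and 11.0 in HE. Fancd2, the clamp that is ubiquitinated at crosslinks, read 2.44, 2.19 and 3.29 in NC and 3.38, 3.30 and 4.29 in HE. The groups parted by little in both, since NC1 reached nearly to HE1 in Nbn and NC3 nearly to HE2 in Fancd2. The log2 fold change was 0.18 ± 0.12 for Nbn (limma adjusted p = 0.365) and 0.47 ± 0.20 for Fancd2 (adjusted p = 0.248). Its partner in the clamp, Fanci, differed by 0.47 ± 0.23 with overlapping groups, and by 0.30 without HE3. The ratio of Fancd2 to Fanci was 0.671 to 0.808 in all samples and overlapped between groups, so the pair had a like ratio in both groups. Fanci overlaps Polg by 4036 bases and Fanca overlaps Zfp276 by 4258 bases.

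Among the others, the ubiquitin ligase Brca1 differed by 0.43 and its partner Bard1 by 0.37, the core complex gene Fanca by 0.38 and the recombination mediator Brca2 by 0.22, each with overlapping groups. HE3 was the highest sample in all 4, and Brca1 was 6.57 there against 3.11 to 4.34 in the other 5 samples. Brca1 and Fanca differed by 0.22 and 0.21 without HE3. Rad50, the ATPase partner of NBN, read 4.48 to 5.33 and differed by 0.06.

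End joining was represented by the Ku heterodimer, which binds broken ends. Xrcc6 (Ku70) read 13.7, 12.9 and 14.9 in NC and 15.8, 16.2 and 21.4 in HE. Every HE sample was above every NC sample, and HE3 was well above HE1 and HE2. The log2 fold change was 0.35 ± 0.15 (n = 3 per group, limma adjusted p = 0.241), and it was 0.21 without HE3. Xrcc6 lies at chr15:81987833-82040085 and shares 23736 bases of that span with Desi1. Xrcc5 (Ku80) differed by 0.22 with overlapping groups, and the ratio of Xrcc6 to Xrcc5 also overlapped (1.13 to 1.25 in NC and 1.06 to 1.55 in HE).

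The checkpoint kinases spanned a wide range of levels. Chek1, which restrains the cell cycle when replication forks stall, read 1.35, 0.981 and 1.51 in NC and 1.63, 1.71 and 1.72 in HE. The HE samples lay close together above NC, whose lowest sample was NC2. The log2 fold change was 0.39 ± 0.20 (limma adjusted p = 0.294) and 0.38 without HE3. Chek2, the kinase downstream of ATM, differed by 0.18. Atm, the kinase for double-strand breaks, was 4.65 to 5.12 in all samples and differed by 0.04. Atr, the kinase for stalled forks, read 0.454, 0.452 and 0.404 in NC and 0.518, 0.589 and 0.320 in HE, with HE3 the lowest of all and HE1 and HE2 the highest. It differed by 0.07 ± 0.25 with HE3 and by 0.28 without it. The median of the 4 kinases was 0.13, and 0.25 without HE3.

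The difference between the class medians, recombination and checkpoint minus excision, was 0.29 on the log2 scale and 0.16 without HE3. The 16 recombination and checkpoint members all remained higher without HE3, with a median of 0.22, and the excision list then had a median of 0.07 with 15 of 23 higher. In each sample, the median deviation of the excision members from the NC mean was 0.04, -0.03 and 0.01 in NC and 0.05, 0.07 and 0.12 in HE. That of the recombination and checkpoint members was 0.04, -0.18 and 0.12 in NC and 0.20, 0.30 and 0.38 in HE. The HE samples were above NC in both classes, and NC2 was the lowest sample of both. NC2 was the lowest sample in 13 of 16 recombination and checkpoint members against 18.5% of all genes, and HE3 was the highest in 10 of 16 against 24.5% of all genes.

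**Figure D3:**
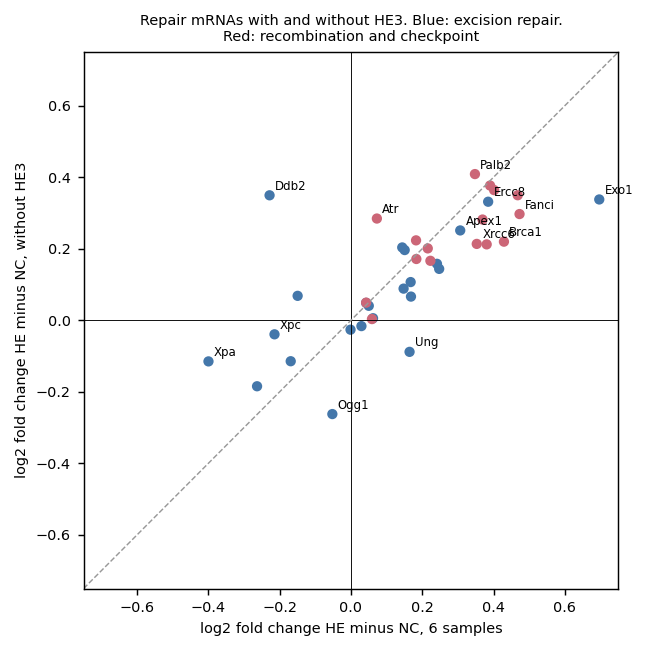
Log2 fold change, HE minus NC, of the 39 members with all 6 samples (x axis) against the same without HE3 (y axis), with excision repair in blue, recombination and checkpoint in red and the line of equality dashed. The red points lie above 0 on both axes, Exo1, Brca1 and Xrcc6 are nearer to 0 without HE3, and Ddb2 goes from -0.23 to 0.35.

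Genes of proliferating cells were low and high in the same samples. On a list of 15 proliferation genes, all 15 were higher in HE, and their median difference was 0.62 on the log2 scale, or 0.38 without HE3. Of these, 13 had an unadjusted p under 0.05 and 12 had groups that did not overlap. The list was chosen with earlier results of these data known, so these counts are not independent of them. Mki67, the antigen of cycling cells, was 15.9 to 23.2 in NC and 28.8 to 36.7 in HE, Top2a, the mitotic topoisomerase, 32.7 to 42.6 and 45.8 to 57.1, and Pcna, the replication clamp, 45.2 to 61.8 and 79.3 to 134. Summed RPKM of the list was 396, 328 and 442 in NC and 501, 542 and 827 in HE, so it was lowest in NC2 and highest in HE3. The paper reported decreased proliferation of HE cells from BrdU labelling, neurosphere assays and cell counts, which are measures other than mRNA level. From mRNA, its gene set enrichment analysis placed genes lower in HE in sets of neuroblast proliferation, neuroblast division and stem cell division. It also listed nucleotide excision repair, DNA replication and cell cycle as KEGG sets with differential enrichment, and its text does not give their direction. The part of proliferation in the differences of the repair genes was not tested. On a list of 10 p53 targets, 4 were higher and the median was -0.14, but without HE3 6 were higher and the median was 0.03. Its first genes differed by -0.04 (Cdkn1a, a cell cycle inhibitor), -0.23 (Mdm2, the ligase of p53) and 0.49 (Ccng1, a cyclin), and by 0.04, 0.03 and 0.51 without HE3.

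**Figure D4:**
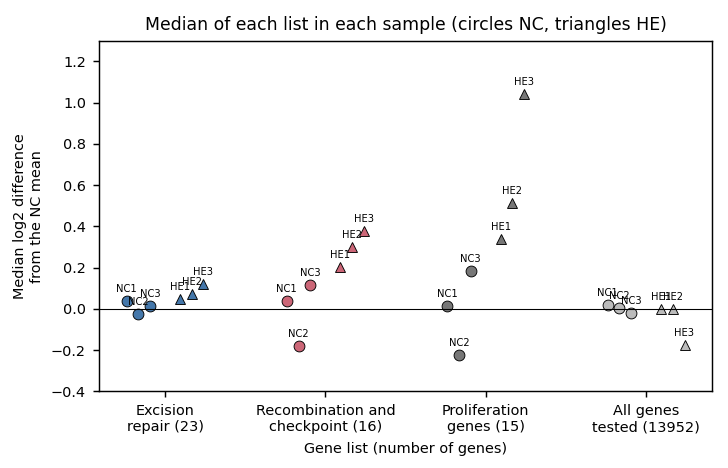
Median log2 difference from the NC mean in each sample (y axis) for the 23 excision repair members, the 16 recombination and checkpoint members, 15 proliferation genes and all 13952 genes tested, with circles for NC and triangles for HE samples. The proliferation and the recombination lists are lowest in NC2 (-0.22 and -0.18) and highest in HE3 (1.04 and 0.38), while the excision list stays between -0.03 and 0.12 and all genes are at -0.17 in HE3.

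A further 90 repair genes outside the list were all tested, and 58 were higher with a median of 0.15. Of them, 15 had an unadjusted p under 0.05 and were higher and 5 were lower, and the groups did not overlap in 24 above and 8 below NC. The class medians lay close together here: 37 excision genes had a median of 0.14 (23 higher) and 53 recombination and checkpoint genes a median of 0.15 (35 higher). The further excision genes include general DNA replication genes, named below, so that list is not made up like the excision members. The smallest adjusted p among the 90 was 0.195.

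Of the 15 further nucleotide excision genes, 12 were higher with a median of 0.35 (0.22 without HE3), and 6 of them had an unadjusted p under 0.05. The median of 0.35 is that of all 15. Among the 12, Rpa1, Rpa2, Rpa3, Lig1, Rfc1, Pold1 and Pole also serve DNA replication and differed by 0.34 to 0.57. The rest of the 12 differed by 0.16 to 0.48, and Cdk7, Xab2 and Uvssa were lower. Pole, the leading strand polymerase, was 3.10 to 4.74 in NC and 5.18 to 7.25 in HE (0.57). Rpa1, which coats single strands, was 22.8 to 28.0 and 30.5 to 46.3 (0.55), and Ccnh, the cyclin of the TFIIH kinase, 5.03 to 5.99 and 6.79 to 8.87 (0.48). Of the 16 further base excision genes, 7 were higher with a median of -0.05, and without HE3 9 were higher with a median of 0.02. The glycosylase Mutyh was higher by 0.43, at 2.20 to 2.84 in NC and 3.45 to 3.49 in HE. The glycosylase Neil2 was lower by the largest margin of the 90, at 1.88, 1.97 and 1.56 in NC and 1.13, 0.570 and 0.193 in HE (-1.61 ± 0.48, limma adjusted p = 0.195). Its HE3 value rested on 6 reads, and the log2 fold change was -1.06 without HE3. Of 6 further mismatch repair genes 4 were higher (median 0.15) and none of them had an unadjusted p under 0.05 in limma.

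Of the 31 further recombination and Fanconi genes, 21 were higher with a median of 0.15. Fancl, the ligase of the Fanconi core complex, differed by 0.62, Usp1, which removes ubiquitin from FANCD2, by 0.48, and the end joining polymerase Polq by 0.48. Lower were the core complex gene Fancc at -0.47 and the nuclease Fan1 at -0.38. All HE samples lay on one side of all NC samples in each of these 5. Of 7 further end joining genes 3 were higher, and the polymerase Polm was lower by 1.01 on the log2 scale, at 3.85 to 4.77 in NC and 1.05 to 3.18 in HE (-0.55 without HE3). Of 15 further checkpoint genes 11 were higher with a median of 0.18. Atrip, the partner of ATR, differed by 0.85, at 0.636 to 1.38 in NC and 1.496 to 2.11 in HE. Topbp1, which activates ATR, differed by 0.45, and the ubiquitin ligase Rnf8 by -0.39.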

How the data were processed

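RNA-Seq covered 3 HE and 3 NC samples. Before alignment to mm10 with TopHat2 the authors discarded reads of low quality or with adaptor, then counted the aligned reads on genes, and the processing notes of the labels also name CASAVA 1.7. The counting tool, annotation, use of strand in counting and TopHat2 version are not given in the sources used here. The paper and the labels name different sequencers. The deposited RPKM was made by the authors from the count, the gene length and the sample's total, and differed from that formula by at most 4.99e-07. The deposited read counts are whole numbers with commas between digits, recorded as another unit because the commas are not read as numbers. They served for depth, the filter and voom.

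Symbols were found for 21781 of 22048 identifiers. Genes were kept for testing if 3 or more samples had a rate equal to 10 reads in a median library and the sum over the 6 samples was 15 reads or more. The values log2(RPKM + 0.1) were fitted with limma 3.58.1 (R 4.3.3) using its trend option, group as the only term and Benjamini-Hochberg adjustment over 13952 genes. A log2 fold change on this scale understates the difference of mRNAs with low RPKM. On simulated counts for these genes with a dispersion of 0.1, 91% of changes of log2 2 and 3% of changes of log2 1 were recovered. That dispersion was set and not estimated from these data. Of the members, 37 had a standard error under 0.25, so these shares need not hold for them. With litters not stated, p-values measure only the spread between these samples. Values near 1 read are limited by counting error, which the worth of a read covers alone.

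The members and all lists were chosen with earlier results of these data known. Members whose groups did not overlap or with an unadjusted p under 0.05 were given by sample. Of other repair genes, those meeting both were named, at most 3 in each direction per list, and of the proliferation and p53 lists the first 3. Classes were compared by counts and medians, with no test. The alternatives were a pseudocount of 1, median-of-ratios scaling, other filters, a replicate block, sample weights, voom on the counts and leaving out each sample. Promoters and coordinates came from RefSeq (GRCm38.p6, the build of mm10).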

Additional observations from a re-analysis of the deposited data

How the results depend on the processing

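No member passed an adjusted p of 0.05 in limma under any of the 13 alternatives, and no member was lower in HE at an unadjusted p under 0.05. Members higher at that level numbered 3 (8.68% of all genes), 5 by voom (8.74%), 7 with sample weights (13.5%) and 0 to 4 with each sample left out (0 without NC2, 4.78%, or HE2, 7.63%, 1 without NC1, 4.39%, and 4 without HE1, 8.57%). The sources do not state whether the replicate numbers pair the samples. Same-numbered samples correlated by 0.156, 0.0869 and 0.0603 in their deviations, and samples of different number by -0.0764 to -0.0011. Each sample thus correlated best with its own number, and these low values do not settle whether the samples are paired. With the replicate block, 5 members were higher at that level (8.75% of all genes) and 0 genes were called. Genes called over the whole table numbered 268 with sample weights and 0 to 103 with each sample left out (103 without NC3). HE3 had a sample weight of 0.158 against 0.852 to 2.87 in the others.

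The recombination and checkpoint median was 0.22 with a pseudocount of 1 and 0.22 to 0.41 with each sample left out. The excision median was 0.12 with median-of-ratios scaling, which moved the median of all genes from -0.06 to -0.00, and 0.053 to 0.098 with each sample left out. The difference of the medians was 0.16 with a pseudocount of 1, 0.19 with sample weights and 0.16 to 0.33 with each sample left out (0.17 without NC2, 0.16 without HE3). It kept its sign in all of these. The 16 recombination and checkpoint members were higher in every alternative except Atr without HE2 (-0.072).

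Other members that changed sign lay near 0 or were moved by a single library. With median-of-ratios scaling Gtf2h1 was 0.060 and Ogg1 0.0088. With sample weights Ercc5 was 0.049, Ddb2 0.12, Ung -0.0041 and Xrcc1 -0.0097. With each sample left out Gtf2h1 ran from -0.052 to 0.047, Ogg1 from -0.26 to 0.066, Parp1 from -0.0014 to 0.11 and Atr from -0.072 to 0.28. Ercc5 ran from -0.27 to 0.068, Ddb2 from -0.64 to 0.35, Ung from 0.39 to -0.088 and Xrcc1 from 0.078 to -0.016, and in these 4 the sign changed without HE3 alone. The cause was not tested. Depth limits Ddb2 most, at 24 reads in HE3.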
